A study of Arabidopsis thaliana with 6 samples.

Results

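The 8 genes described here encode the membrane sensors of unfolded proteins in the endoplasmic reticulum of Arabidopsis thaliana and disulfide isomerases that work inside that compartment. They were chosen by locus as BZIP60 (AT1G42990), BZIP28 (AT3G10800), BZIP17 (AT2G40950), IRE1A (AT2G17520), IRE1B (AT5G24360), PDIL1-1 (AT1G21750), PDIL1-2 (AT1G77510) and PDIL2-1 (AT2G47470), out of 20310 genes that the array measures with a probe set of their own. Each of the 8 had 1 probe set that names no other gene. The study measured RNA of whole Col-0 seedlings with 6 Affymetrix arrays, each hybridised with its own sample. In the heat group, 3 samples were exposed to 37 °C for 30 min in the light. The 3 control samples stayed in the light at 23 °C, at which all seedlings had grown, and the labels name neither a mutation, a transgene nor a chemical in either group. The labels give ages of 10, 11 and 12 days for the control samples and 13, 14 and 15 days for the heat samples. The series text gives 10 days for all seedlings, so whether the groups differed in age is not known. The labels do not say whether the samples of a group were grown separately, so p-values measure only the spread between these samples, which may be technical.

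The endoplasmic reticulum folds secreted and membrane proteins, and unfolded proteins there start the unfolded protein response. In Arabidopsis one arm uses BZIP28 and BZIP17, transcription factors anchored in the membrane that move to the Golgi, where proteases release their DNA-binding part. The other arm uses IRE1A and IRE1B, membrane kinases with a ribonuclease that splices the BZIP60 messenger RNA so that its product can enter the nucleus. Protein disulfide isomerases form and rearrange disulfide bonds in proteins being folded, and several of their genes are known targets of this response. An expression array measures how much RNA is present, and neither the splicing of BZIP60 nor the cleavage of the anchored factors was measured here. Whole seedlings were extracted, so fewer cells that use a gene and less RNA per cell cannot be told apart.

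All levels are log2 values, and changes are heat minus control on that scale with limma standard errors. A gene is called at an adjusted p under 0.05 (limma, Benjamini-Hochberg adjustment over all 22746 probe sets tested). Array medians lay between 4.39 and 4.53. The standard deviation of the difference between any pair of arrays was 0.19 to 0.28 within the heat group and 0.36 to 0.55 within the control group. The heat arrays carried the heat response: HSP101, the disaggregase of heat tolerance, was at least 13.69 on each of them, against 4.82, 4.87 and 8.22 in control arrays 1, 2 and 3. Leaf and root markers were present, with the carbonic anhydrase CA1 at 12.77 to 12.86 in heat arrays and 13.00 to 13.16 in control arrays, and the log2 of the summed root markers at 9.85 to 10.30 in heat arrays and 11.40 to 11.48 in control arrays. Of the 3 root markers PYK10 fell by 1.45 (adjusted p = 0.000589) and TIP2;3 by 0.67 (adjusted p = 0.00375), RCI3 differed by -0.07 (adjusted p = 0.876), and their part in the changes of the 8 genes was not tested. The summed seed markers CRA1 and OLEO1 were at 4.32 to 4.52 in heat arrays and 4.29 to 4.43 in control arrays.

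The membrane-anchored factors BZIP28 and BZIP17 were both higher after heat. BZIP28, the factor whose release drives chaperone genes of the endoplasmic reticulum under heat and folding stress, was at 8.19, 8.63 and 8.11 in heat arrays 1, 2 and 3, against 6.31, 6.70 and 7.61 in control arrays 1, 2 and 3. Every heat array lay above every control array, and control array 3 was the nearest, 0.50 below the lowest heat array. The mean was 8.31 ± 0.28 after heat and 6.88 ± 0.66 in controls (SD, n = 3 each), a rise of 1.44 ± 0.33 or 2.71-fold (limma adjusted p = 0.0261). BZIP17, the related factor best known from salt stress, was at 7.18, 7.13 and 7.18 in heat arrays, against 6.24, 6.58 and 6.70 in control arrays. The heat values of BZIP17 spanned 0.05 and the control values 0.45, and the groups did not overlap. BZIP17 rose by 0.66 ± 0.13 or 1.58-fold (limma adjusted p = 0.0132). The call on BZIP28 was lost without control replicate 2 (1.35, limma adjusted p = 0.087) or without heat replicate 1, 2 or 3 (1.50, 1.28 and 1.54, up to 0.0829), and the call on BZIP17 without heat replicate 1 or 3 (0.65 and 0.66, up to 0.0565). With each array scaled to its probe sets for Bacillus RNAs, BZIP17 differed by 0.16 and was not called (limma adjusted p = 0.51), while BZIP28 was at 0.93 and called. The fit with this scaling called 643 of all 22746 probe sets higher and 9667 lower.

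**Figure D1:**
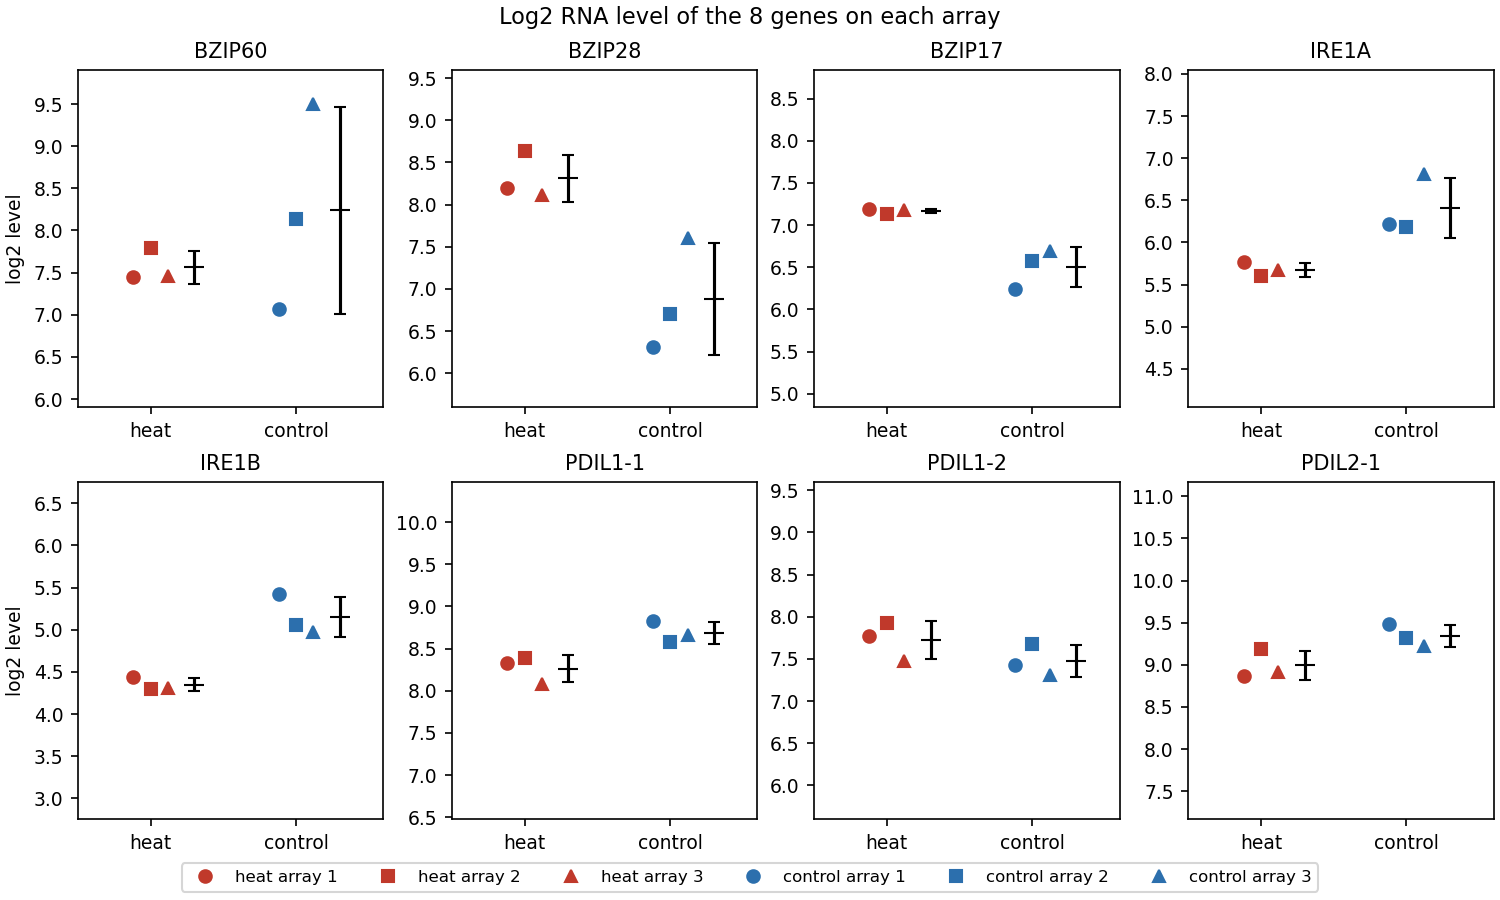
Log2 RNA level (vertical axis, of equal span in each panel) of each of the 8 genes on the 3 heat arrays (left, red) and the 3 control arrays (right, blue), with the mean and SD of each group in black. BZIP28 and BZIP17 are higher on every heat array, IRE1A, IRE1B, PDIL1-1 and PDIL2-1 are lower on every heat array, and the control arrays of BZIP60 spread from 7.07 to 9.51.

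Both IRE1 genes, which encode the kinase and ribonuclease sensors, were lower after heat. IRE1A was at 5.77, 5.60 and 5.67 in heat arrays 1, 2 and 3, against 6.21, 6.19 and 6.82 in control arrays 1, 2 and 3. The groups were separate, with control array 3 the highest. IRE1A averaged 5.68 ± 0.08 after heat and 6.41 ± 0.36 in controls (SD, n = 3 each) and fell by 0.73 ± 0.18, or 1.66-fold (limma adjusted p = 0.0326). IRE1B was at 4.44, 4.29 and 4.31 in heat arrays, against 5.43, 5.06 and 4.97 in control arrays. Here too the groups were separate, and control array 1, not 3, was the highest. IRE1B fell by 0.80 ± 0.13, or 1.75-fold (limma adjusted p = 0.00747). Its heat levels were close to the array medians, and the share of background in them was not measured. The call on IRE1A was lost without heat replicate 1, 2 or 3 (-0.77, -0.69 and -0.72, limma adjusted p up to 0.102), after quantile normalization and after centring each array on its median (-0.60 and -0.62, limma adjusted p = 0.0612 and 0.0524). IRE1B kept its call whichever of the 6 arrays was left out (limma adjusted p up to 0.0382). It lost the call without moderation (-0.80, limma adjusted p = 0.0536) and with the labelled age as a covariate (-0.37, 0.495). Scaled to the Bacillus controls, IRE1A was at -1.23 and IRE1B at -1.31, both called. That scaling moved the median of all probe sets to -0.49 and called 9667 of 22746 lower.

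BZIP60, whose messenger RNA is the substrate of IRE1, differed more between control samples than between the groups. It was at 7.44, 7.79 and 7.46 in heat arrays 1, 2 and 3, against 7.07, 8.14 and 9.51 in control arrays 1, 2 and 3. The heat arrays lay together, above control array 1 and below control arrays 2 and 3. The mean was 7.56 ± 0.19 after heat and 8.24 ± 1.22 in controls (SD, n = 3 each), and 98.6% of all probe sets had a smaller SD over the control arrays. The difference of -0.67 ± 0.56 did not pass (limma adjusted p = 0.462), and its 95% interval of -2.01 to 0.66 includes falls and rises. It was -0.04 without control replicate 3 (limma adjusted p = 0.953) and -1.26 without control replicate 1 (0.0752). Scaled to the Bacillus controls, BZIP60 was at -1.18 and called (limma adjusted p = 0.00191), where 9667 of 22746 probe sets were called lower. Its standard error in that fit was 0.31, against 0.56 as reported, with 41.4 against 2.65 prior degrees of freedom.

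Control array 3 was the highest control array for several of the sensors. BZIP60, BZIP28 and IRE1A were higher there than the mean of control arrays 1 and 2 by 1.90, 1.10 and 0.62. These 3 of the 8 genes differed by over 0.5, a limit chosen after the values were seen, against 9.43% of all probe sets. On the same array PDIL1-1, PDIL1-2 and PDIL2-1 differed by -0.05, -0.25 and -0.18. Control array 3 also held the highest control values of HSP101 and of the transcription factor HSFA2, which was at 3.69, 3.72 and 7.30 in control arrays 1, 2 and 3. Control arrays 1 and 2 were not each set against the others in this way. BZIP60 and BZIP28 also rose from control array 1 to control array 2. Over all probe sets the SD of the difference was 0.36 between control arrays 1 and 2, 0.38 between 2 and 3, and 0.55 between 1 and 3. What raised these values was not tested. Without control replicate 3 the changes of BZIP28 and IRE1A were 1.80 (limma adjusted p = 0.00168) and -0.52 (0.0131), both still called.

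Of the disulfide isomerases, PDIL1-1 was lower after heat and the other 2 did not pass the test. PDIL1-1, an isomerase that also accompanies proteases to the vacuoles of seed cells, was at 8.33, 8.38 and 8.08 in heat arrays 1, 2 and 3, against 8.83, 8.58 and 8.66 in control arrays 1, 2 and 3. All heat arrays lay below all control arrays, by 0.19 at the nearest. PDIL1-1 fell by 0.43 ± 0.12, or 1.34-fold (limma adjusted p = 0.0467). PDIL2-1, an isomerase needed in the embryo sac and listed as UNE5 in the deposited annotation, was at 8.87, 9.19 and 8.92 in heat arrays, against 9.48, 9.32 and 9.22 in control arrays. Its groups were separate by 0.03 alone. PDIL2-1 differed by -0.35 ± 0.12 and did not pass (limma adjusted p = 0.0916). PDIL1-2, numbered in the same subfamily as PDIL1-1, was at 7.77, 7.93 and 7.47 in heat arrays, against 7.43, 7.68 and 7.31 in control arrays. The groups of PDIL1-2 overlapped, and the difference of 0.25 ± 0.15 did not pass (limma adjusted p = 0.307, 95% interval -0.11 to 0.61).

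The call on PDIL1-1 was lost whichever of the 6 arrays was left out, and the change ran from -0.49 to -0.33 and the limma adjusted p from 0.0595 to 0.129. After scaling to the Bacillus controls PDIL1-1 was at -0.93 and called, PDIL1-2 turned to -0.25 (limma adjusted p = 0.321), and PDIL2-1 was called at -0.85 (0.00258). The same scaling moved the median of all probe sets to -0.49 and called 9667 of 22746 lower, so these shifts are not particular to the isomerases. PDIL2-1 was also called without heat replicate 2 (-0.45, limma adjusted p = 0.0493).

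**Figure D2:**
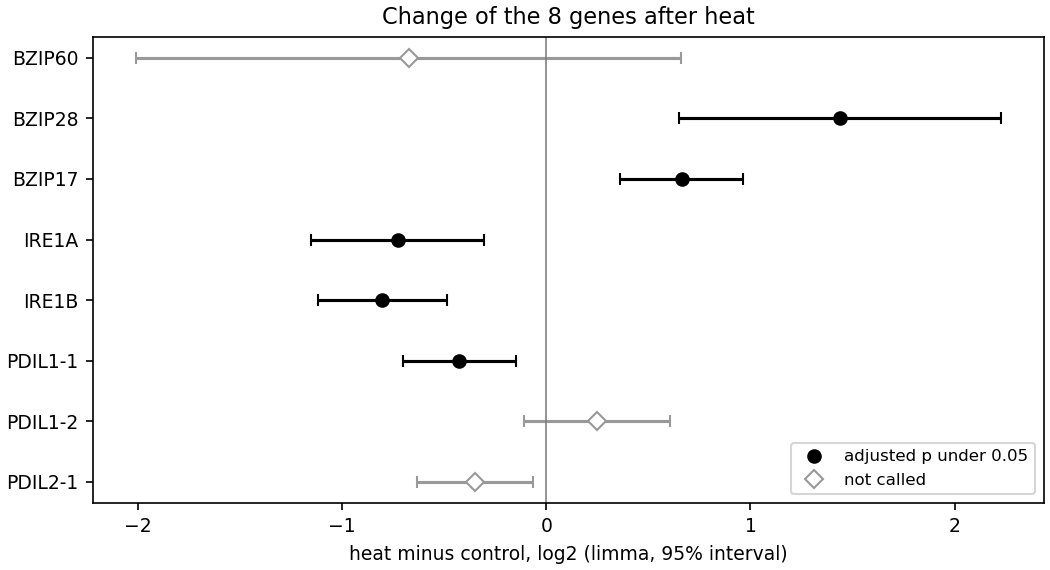
Change of each gene, heat minus control on the log2 scale (horizontal axis), with its 95% limma interval; filled circles passed at an adjusted p under 0.05 and open diamonds did not. BZIP28 at 1.44 and BZIP17 at 0.66 lie above 0, IRE1A at -0.73, IRE1B at -0.80 and PDIL1-1 at -0.43 lie below it, and BZIP60 has the widest interval.

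Of the 8 genes, 2 were called higher and 3 lower after heat, where 7.82% of all probe sets were called higher and 11.5% lower, together 5 of 8 genes against 19.3% of probe sets. The groups did not overlap in 6 genes, 2 with all heat arrays above (18.8% of all probe sets) and 4 with all heat arrays below (20.0%). The median change of the 8 genes was -0.39, and that of all probe sets 0.02. Among the sensors 2 of 5 were higher and 2 lower, and among the isomerases 0 of 3 were higher and 1 lower. The count of higher genes ran from 0 to 2 and that of lower genes from 1 to 2 when single arrays were left out. Those fits called 1035 to 1774 of all 22746 probe sets higher and 1473 to 2807 lower. The sample labels give ages of 13, 14 and 15 days on heat arrays 1, 2 and 3, against 10, 11 and 12 days on control arrays 1, 2 and 3, while the series text gives 10 days for all seedlings. Which is right was not settled, so whether the groups differed in age is not known. With the labelled ages as a covariate none of the 8 genes was called (limma adjusted p from 0.208 for IRE1A to 0.877 for PDIL1-1). That fit called 359 of all 22746 probe sets higher and 227 lower, so few genes of any kind were called. The adjusted values bear on age only if the sample labels are right. Even then the labelled ages do not overlap between the groups and rise with array number in each. Age and array order therefore cannot be told apart, and the fit extends a slope within the groups across the gap between them.

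**Figure D3:**
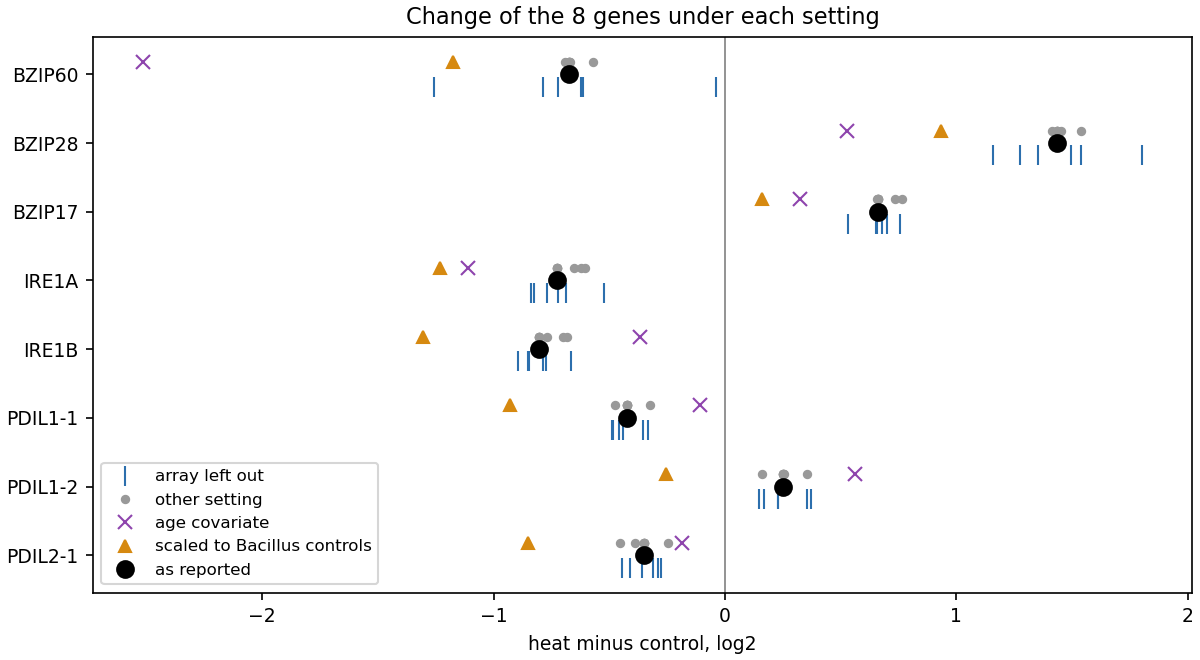
Change of each gene, heat minus control on the log2 scale (horizontal axis), as reported (black circles), with 1 array left out (blue bars), with the labelled age as a covariate (purple crosses), after scaling to the Bacillus controls (orange triangles) and under the other settings (grey dots). The sign is the same in all settings for 7 genes and turns for PDIL1-2 after the Bacillus scaling, and BZIP60 is at -2.52 with the age covariate and at -0.04 without control replicate 3.

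Pairs of the genes were compared within each array, where any factor common to the whole array cancels. Probe sets differ in brightness, so only the shift of a difference between the groups is read, not its size on 1 array. BZIP28 minus BZIP60 was 0.75, 0.84 and 0.65 in heat arrays 1, 2 and 3, against -0.75, -1.44 and -1.90 in control arrays 1, 2 and 3. The groups did not overlap, and the shift of 2.11 was the largest of the 5 pairs compared. BZIP28 minus BZIP17 was 1.01, 1.50 and 0.93 in heat arrays, against 0.07, 0.13 and 0.91 in control arrays. The shift was 0.77, with control array 3 next to the lowest heat array. PDIL1-1 minus PDIL1-2 was 0.56, 0.46 and 0.60 in heat arrays, against 1.40, 0.90 and 1.35 in control arrays. The shift was -0.68, with no overlap between the groups. For these 3 pairs the exact 2-sided permutation p was 0.1, the smallest that 3 against 3 arrays allow (0.167 adjusted over the 5 pairs), so no pair could pass the threshold.

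The remaining pairs overlapped between the groups. IRE1A minus IRE1B was 1.32, 1.31 and 1.36 in heat arrays, against 0.79, 1.13 and 1.84 in control arrays, a shift of 0.08 (exact permutation p = 0.8). PDIL2-1 minus PDIL1-1 was 0.55, 0.80 and 0.84 in heat arrays, against 0.65, 0.75 and 0.56 in control arrays, a shift of 0.08 (exact permutation p = 0.6). Leaving out single arrays moved these shifts from -0.16 to 0.37 for the IRE1 pair and from 0.02 to 0.17 for the isomerase pair, and equal change is not shown by either value.

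**Figure D4:**
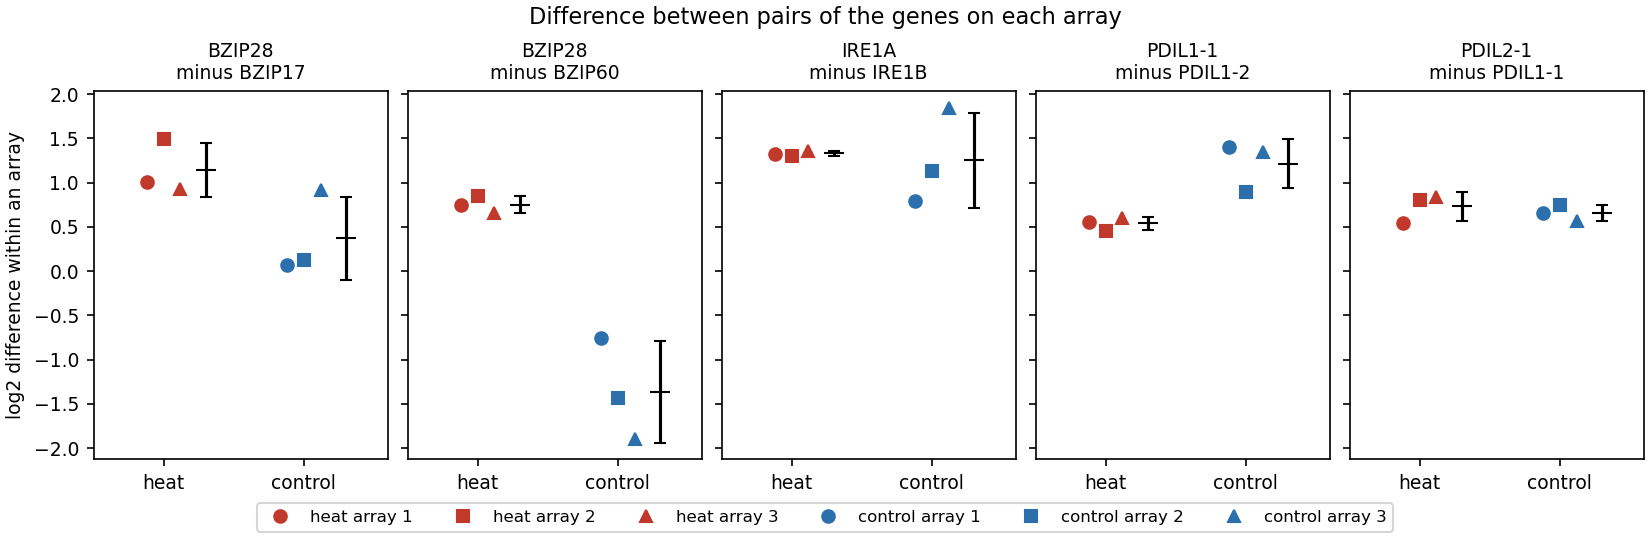
Difference in log2 level between the genes of each pair (vertical axis) on the 3 heat arrays (left, red) and the 3 control arrays (right, blue), with the mean and SD of each group in black. The groups are separate for BZIP28 minus BZIP60, BZIP28 minus BZIP17 and PDIL1-1 minus PDIL1-2 and overlap for the other pairs.

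Genes with the most similar pattern to each of the 8 over the 6 arrays were sought among 9353 genes with an SD of at least 0.2. Pearson's r was from 0.987 to 0.998 for the 16 genes found, and with 6 arrays in 2 groups and so many genes compared such values are a description of these arrays only. BZIP28 was closest to COR47, a dehydrin induced by cold and drought (r = 0.995), which was at 12.11, 12.54 and 12.13 in heat arrays, against 10.69, 11.05 and 11.58 in control arrays, and to AT3G57880 (r = 0.993). BZIP17 was closest to AT5G01740 (r = 0.995) and to DREB2A, a factor of drought and heat responses (r = 0.993), which was at 12.26, 12.35 and 12.20 in heat arrays, against 6.10, 8.95 and 9.55 in control arrays. BZIP17, DREB2A, BZIP28 and COR47 were each lowest in control array 1. DREB2A, BZIP28 and COR47 were each highest in heat array 2, where BZIP17 had the lowest of its heat values, 7.13. BZIP60 was closest to AT3G54000 and AT1G50740 (r = 0.995 and 0.994), both of which spread over the control arrays as it did. AT1G50740 was at 7.74, 8.24 and 7.68 in heat arrays, against 7.50, 8.85 and 10.66 in control arrays. IRE1A was closest to AT5G45280 and AT4G30600 (r = 0.998 each), and IRE1B to AT5G59500 and AT3G51290 (r = 0.998 and 0.997). Among the isomerases PDIL1-1 was closest to ENODL9 and AT1G74750 (r = 0.993 and 0.992), and PDIL1-2 to AT1G33910 and IMPA-6, an importin (r = 0.988 and 0.987). PDIL2-1 was closest to JAR1, which joins jasmonate to amino acids, and to PHS2, a glucan phosphorylase (r = 0.996 each).

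Of 8 measured partners of the sensors, 0 were called higher and 1 lower, with a median change of -0.06, where 7.82% of all probe sets were called higher and 11.5% lower, so the count is near that of all probe sets. The gene called was AGB1, the beta subunit of the heterotrimeric G protein, at 6.89, 6.97 and 6.92 in heat arrays, against 7.45, 7.54 and 8.14 in control arrays. It fell by 0.78 ± 0.18 (limma adjusted p = 0.0272), a call lost without control replicate 2 or without any 1 heat replicate (-0.87, -0.76, -0.80 and -0.78, limma adjusted p up to 0.0968). The protease gene S1P, whose product cuts the anchored factors in the Golgi, differed by -0.06, and AT4G20310 by 0.13. BZIP49, the third member of the BZIP17 and BZIP28 group, differed by 0.19 at a low level of 3.74 ± 0.12 after heat and 3.55 ± 0.19 in controls (SD, n = 3 each). The membrane-linked NAC factors NAC062 and NAC089 differed by -1.30 and 0.22, and NAC103, a target of BZIP60, by -0.06. BAG7, a co-chaperone of the endoplasmic reticulum, differed by -0.34, and limma adjusted p-values of these 7 genes ran from 0.291 to 0.842. NAC062 shared the control pattern of BZIP60: it was at 7.47, 7.69 and 7.23 in heat arrays, against 6.42, 9.42 and 10.45 in control arrays, and without control replicate 1 it was called at -2.47 (limma adjusted p = 0.00381).

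Among the 12 other isomerase and ERO genes 2 were called higher (7.82% of all probe sets) and 4 lower (11.5%), with a median change of -0.29. PDIL2-2 was at 6.93, 7.18 and 7.16 in heat arrays, against 4.82, 4.62 and 4.74 in control arrays, and rose by 2.37 ± 0.10 (limma adjusted p = 2.32e-05). PDIL2-3 rose by 1.43 ± 0.08 (limma adjusted p = 8.8e-05). Both carry the same subfamily number as PDIL2-1, which did not pass. The falls were 1.31 ± 0.15 in PDIL5-2 (limma adjusted p = 0.00186), 0.92 ± 0.10 in PDIL1-4 (0.00133), 0.92 ± 0.14 in PDIL5-4 (0.00527) and 0.63 in PDIL1-6 (0.0359, lost without any 1 control replicate or without heat replicate 1 or 3, up to 0.0846, with changes from -0.72 to -0.59). ERO1 and ERO2, the oxidases that recharge the isomerases, differed by 0.07 and -0.19 and did not pass (limma adjusted p = 0.706 and 0.285).

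The chaperones and degradation factors of the same compartment are among the known targets of BZIP28 and BZIP60. Of 13 chaperone genes measured by a probe set of their own, 8 were called higher (7.82% of all probe sets) and 0 lower (11.5%) after heat, with a median change of 0.87. The co-chaperone ERDJ3A rose by 6.74 ± 0.17 (limma adjusted p = 2.53e-06), the lectin chaperone CNX1 by 1.83 ± 0.16 (0.000459), and SDF2 and ERDJ3B by 1.53 each (5.03e-05 and 0.00115). The co-chaperone P58IPK was 4.28-fold higher (limma adjusted p = 3.21e-05). BIP1 and BIP2, whose products hold BZIP28 back in the membrane, share 1 probe set, which was at 12.63, 12.84 and 12.64 in heat arrays, against 10.34, 9.83 and 9.81 in control arrays, and rose by 2.71 ± 0.16 (limma adjusted p = 9.3e-05) without showing which of the genes did. BIP3, a gene that responds strongly to drugs that block folding, was at 2.95, 3.12 and 3.01 in heat arrays, against 2.99, 3.12 and 2.97 in control arrays, near the array minima of 2.53 to 2.66.

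Of 11 genes of endoplasmic reticulum-associated degradation, which returns misfolded proteins to the cytosol, 5 were called higher (7.82% of all probe sets) and 1 lower (11.5%), with a median change of 0.36. DER1, a derlin of the export channel, was at 10.47, 10.56 and 10.49 in heat arrays, against 5.73, 5.87 and 5.94 in control arrays, and rose by 4.66 ± 0.09 (limma adjusted p = 6.27e-07). Its relative DER2.1 rose by 1.49 ± 0.10 (limma adjusted p = 0.000148), the ubiquitin ligase gene HRD1B by 0.98 ± 0.13 (0.00266), AT4G29960 by 0.70 ± 0.10 (0.0036) and HRD3A, a partner of the ligase, by 0.59 ± 0.10 (0.00888). DER2.2 was the gene called lower, at -0.49 (limma adjusted p = 0.0318), a call that held when control replicate 2 was left out and was lost without any other array (up to 0.0916, with changes from -0.57 to -0.40). HRD3A differed by 0.08 after scaling to the Bacillus controls (limma adjusted p = 0.736), HRD1B by 0.48 (0.0657) and AT4G29960 by 0.20 (0.408). With the age covariate the rises of HRD1B, AT4G29960 and HRD3A were not called (limma adjusted p = 0.19, 0.163 and 0.112), nor were the falls of PDIL5-2, PDIL1-4, PDIL5-4 and PDIL1-6 (0.153, 0.17, 0.225 and 0.552).

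**Figure D5:**
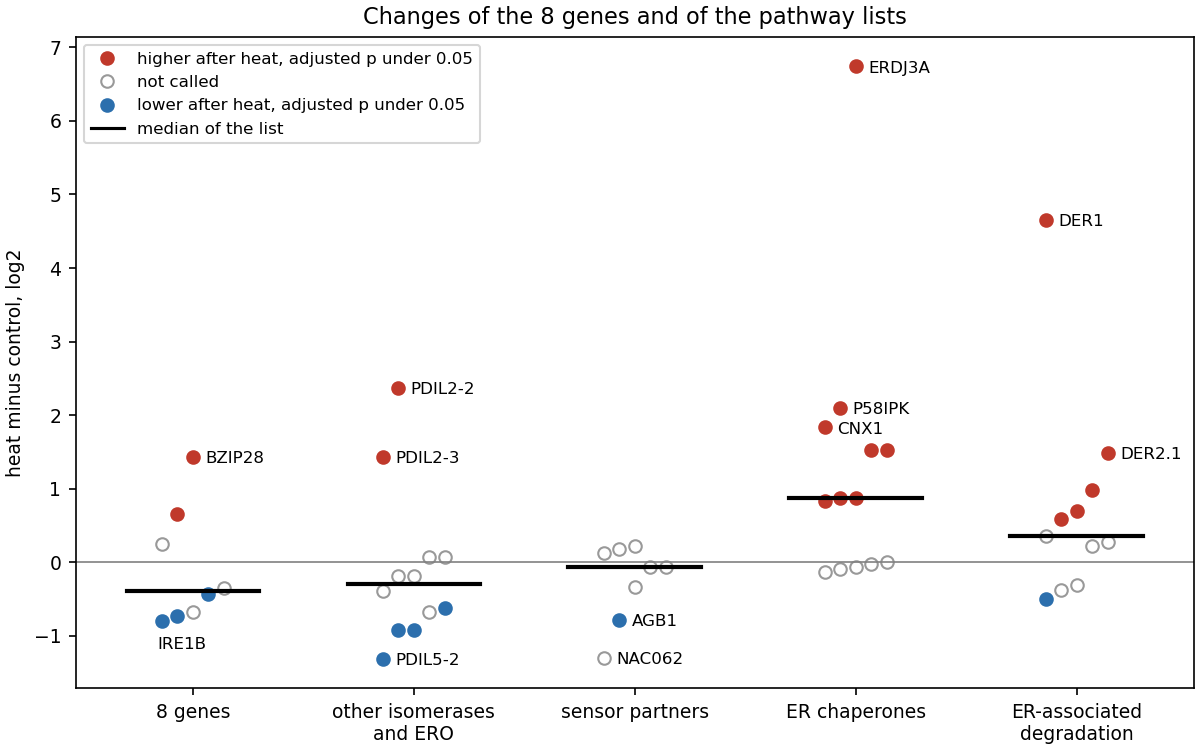
Change of each gene, heat minus control on the log2 scale (vertical axis), for the 8 genes and the 4 pathway lists (horizontal axis), in red where called higher, blue where called lower and open grey where not called, with each list's median as a black line. The medians are -0.39 for the 8 genes, -0.29 for the other isomerases and ERO genes, -0.06 for the sensor partners, 0.87 for the chaperones and 0.36 for degradation, and ERDJ3A and DER1 lie highest.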

How the data were processed

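The deposited table holds log2 levels, 1 column per array, which the authors made with RMA (background subtraction, equal distributions over arrays, summary per probe set), per the submitters' processing notes. Its version is not given in the sources used here. Values were used as deposited, and all 136860 cells are exactly equal, with no tolerance, to those of the authors' annotated table, whose gene identifiers named the probe sets. Of 22810 probe sets, 64 controls were left out and 22746 tested. Of 20661 probe sets with 1 gene identifier, 20540 matched the RefSeq table of TAIR10.1; a gene took its probe set with the highest mean.

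Heat was compared with control by limma 3.58.1 in R 4.3.3 (group only, 4 residual and 2.65 prior degrees of freedom), which was tested on simulated data. Of 50 simulated log2 changes of each size, 4 were called at 0.5, 43 at 1, and 50 at 2 and at 4. No other simulated probe set was changed, while the main fit called 19.3% of all probe sets. The Benjamini-Hochberg cut depends on that share, so these rates do not carry over to the main fit. The simulated data gave 11 false calls. Arrays give no read depth, so the number of arrays limits precision. Pairs of genes were tested by exact permutation. Other tables and figures used Python 3.11.15. Samples were grouped by their titles. The labels do not say that equal replicate numbers mark a shared batch, so the samples were not paired. Correlations of deviations from the group means were 0.06, 0.20 and -0.10 for equal numbers and -0.17 to 0.17 for unequal numbers. With 3 arrays per group these values cannot settle whether the samples were paired.

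The 8 genes, the lists and the tests were chosen with earlier results of these data known. Named genes were the 8, all sensor partners, the called members of the other lists (the 5 with the largest change where over 5 were called) and the 2 most similar genes by r; PDIL1-6, ERO1, ERO2, BIP1, BIP2, BIP3 and DER2.2 were named after their values were seen. The alternatives were quantile normalization, median centring, scaling to 24 Bacillus control probe sets, leaving out the dimmest 25% of probe sets, an intensity trend, no moderation, array weights, the replicate number as a block, age as a covariate, the mean over probe sets and leaving out each array. Dark-treated groups named in the series text, promoter motifs and sequences were not analysed here.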

Additional observations from a re-analysis of the deposited data

How the results depend on the processing

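The 8 genes had 1 probe set each, so the mean over probe sets changed their adjusted p only through the number of tests. With 1 array left out, changes ran from 1.16 to 1.80 for BZIP28, 0.53 to 0.76 for BZIP17, -0.84 to -0.52 for IRE1A, -0.89 to -0.67 for IRE1B, -0.49 to -0.33 for PDIL1-1, -0.45 to -0.28 for PDIL2-1, 0.15 to 0.37 for PDIL1-2 and -1.26 to -0.04 for BZIP60, with 0 to 2 of the 8 called higher and 1 to 2 lower. In those fits the sensor partners had 0 to 2 lower and degradation genes 0 to 1 lower, and the chaperone median was 0.74 to 0.94. Such a fit also has fewer samples, and called 1035 to 1774 of all 22746 probe sets higher and 1473 to 2807 lower. With the replicate block the change of PDIL1-1 stayed at -0.43 and lost its call (limma adjusted p = 0.0701), degradation genes had 2 lower, and no other call on the 8 genes changed. Without moderation no call on the 8 was left (limma, adjusted p = 0.0536 for IRE1B at -0.80, 0.0679 for BZIP17 at 0.66, 0.119 for PDIL1-1 at -0.43, 0.124 for BZIP28 at 1.44 and 0.125 for IRE1A at -0.73), nor on a partner or a lower degradation gene (0 each). The unmoderated fit called 971 of all 22746 probe sets higher and 1178 lower, fewer than the 1778 and 2614 of the main fit. With the age covariate changes were 0.53 for BZIP28, 0.32 for BZIP17, -1.11 for IRE1A, -0.37 for IRE1B and -0.11 for PDIL1-1, none called, with 0 lower in the isomerase, partner and degradation lists and 5 chaperones and 2 degradation genes higher. The age fit called 359 of 22746 probe sets higher and 227 lower.

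The Bacillus controls averaged 6.65 to 7.14 in heat arrays and 6.40 to 6.47 in control arrays, on the log2 scale. Scaling to them moved the median of all probe sets to -0.49, and 643 of the 22746 probe sets were called higher and 9667 lower. The changes were then 0.16 for BZIP17, -1.18 for BZIP60, -0.85 for PDIL2-1, -0.25 for PDIL1-2, -1.23 for IRE1A, -1.31 for IRE1B and -0.93 for PDIL1-1, with 1 of the 8 called higher and 5 lower. The lists had 8 isomerase genes lower (median -0.79), 5 partners lower (median -0.57), 5 chaperones higher and 3 lower (median 0.37), and 2 degradation genes higher and 3 lower (median -0.14). Median centring, which moved the median of all probe sets to 0.12, left IRE1A at -0.62 and PDIL1-1 at -0.32 without a call, 1 of the 8 lower and 0 degradation genes lower. It called 3054 of the 22746 probe sets higher and 2126 lower. Quantile normalization gave -0.60 for IRE1A, not called, and -0.45 for PDIL2-1, called. With array weights PDIL2-1 was called at -0.39 and 3 degradation genes were lower, and with an intensity trend PDIL1-1 at -0.43 was not called and 0 degradation genes were lower. The cause of these shifts was not tested. The 5 pair differences moved by less than the larger group SD under quantile normalization and when single arrays were left out. Within that limit the IRE1 shift turned from 0.08 to -0.16 without control replicate 1. The replicate block and the mean over probe sets cannot change a pair difference, and the other settings were not run on pairs. The promoter motifs and their window were not run, since no sequences were used here.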
